A study of Rattus norvegicus with 2 samples.

Results

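Genes that carry out programmed cell death were examined in the spleen of a cocaine-treated rat and a control rat. The set was chosen by name and holds 7 genes, namely Casp1, Casp8, Casp9, Ripk1, Ripk3, Mlkl and Gsdmd. Of these 7 genes, 5 were measured among 15037 named genes, each by 1 transcript cluster, which is the set of probes that an array holds for the transcripts of a gene. Mlkl and Gsdmd are not analysed here. Total spleen RNA came from 1 male Sprague-Dawley rat that received 50 mg/kg cocaine intraperitoneally each day for 7 days and from 1 control rat of the same sex and strain, each hybridized to 1 Clariom S rat array. The rats were 6 weeks old at the start, and spleens were taken 24 h after the last injection. The control sample is titled as not stimulated, its treatment label repeats the cocaine treatment, and the methods describe saline injection for controls, so it was taken as the control. Each group is a single animal. The study blotted markers of apoptosis, necroptosis, pyroptosis and ferroptosis to ask whether cell death takes part in the shrinkage of the spleen, and the arrays give the messenger RNA of some of the same genes.

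Several routes of death meet in this set. In apoptosis, initiator caspases are activated on platforms: caspase 8 at death receptors, and caspase 9 on the apoptosome that Apaf1 and cytochrome c form. In necroptosis, the kinases RIPK1 and RIPK3 bind each other and RIPK3 phosphorylates the pseudokinase MLKL, which breaks the plasma membrane. Caspase 8 cleaves both kinases and thereby holds this route back. In pyroptosis, inflammasomes activate caspase 1, which matures IL-1beta and IL-18 and cuts gasdermin D into a fragment that forms pores. These proteins are controlled mainly by cleavage and phosphorylation, which an array does not measure.

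The values are log2 signals, so a difference of 1 between the arrays is a 2-fold difference. Every difference is the cocaine signal minus the control signal. The median signal of the 23188 transcript clusters was 6.97 on both arrays, and the highest of 23 background features reached 7.76 on both. A signal under this feature is not told apart from background here, although that limit lies above the median signal. The tissue label was checked against marker lists. Of 22 measured B, T and NK cell markers, 18 had signals above the highest background feature on both arrays, while all 10 markers of pancreas and gut were under it on both. No test, error or p-value can be had from 1 array per group, and so few arrays limit how precise any value is.

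Promoter sequences are shown for the caspase 1 gene, which held the only motif match, and for both receptor-interacting kinases, whose differences lay farthest apart. Each run is the 250 bases before the start of the gene in RefSeq (build GRCr8), written 5′ to 3′ on the strand of the gene. The array annotation names no build, so these positions are those of RefSeq only. Promoters were found for 5 of the 7 genes, and those of Casp8 and Gsdmd were not searched. In the first sequence the capitals mark an interferon-stimulated response element (ISRE), and in the others they mark each CG dinucleotide.
Casp1 chr8:10872580-10872829 (+ strand): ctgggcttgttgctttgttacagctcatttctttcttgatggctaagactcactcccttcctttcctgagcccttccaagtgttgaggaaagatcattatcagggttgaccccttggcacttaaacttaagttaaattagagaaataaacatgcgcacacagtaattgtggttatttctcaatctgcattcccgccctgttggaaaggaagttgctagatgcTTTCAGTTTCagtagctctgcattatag
Ripk1 chr17:31077168-31077417 (- strand): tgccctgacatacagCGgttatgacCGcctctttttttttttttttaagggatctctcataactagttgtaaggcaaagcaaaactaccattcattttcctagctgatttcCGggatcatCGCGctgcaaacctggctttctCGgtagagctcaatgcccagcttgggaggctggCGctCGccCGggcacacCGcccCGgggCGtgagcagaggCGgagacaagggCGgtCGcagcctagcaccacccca
Ripk3 chr15:33262026-33262275 (- strand): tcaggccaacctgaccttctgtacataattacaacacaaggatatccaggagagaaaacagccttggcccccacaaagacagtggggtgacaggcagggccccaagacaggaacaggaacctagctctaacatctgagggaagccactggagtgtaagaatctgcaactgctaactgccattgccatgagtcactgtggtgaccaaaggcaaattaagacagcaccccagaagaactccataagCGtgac

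The ISRE was searched as GAAA, 2 bases of any kind and GAAA again, on both strands and with overlaps allowed, in windows that also take in the 50 bases after the start. It lay on the minus strand of the Casp1 window, from 28 to 19 bases before the start, and 3.77% of 27457 promoters of the same length hold it. No match was found in the windows of Casp9, Mlkl and both kinases. The GAS element, TTC and GAA with 3 bases of any kind between them, and an NF-kB motif, GGG and TTCC with 3 bases of any kind between them, were in none of the 5 windows, against 8.68% and 5.36% of all promoters. The upstream 250 bases of Ripk1 hold 15 CG dinucleotides and those of Ripk3 hold 1, while the median promoter holds 6. Casp9 has 20 and Casp1 has 2. A match is a description of the letters and not a binding site.

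None of the 5 measured genes differed 2-fold or more between the arrays. Among all named genes, 2.28% were higher after cocaine by 2-fold or more and 4.97% were lower by as much (343 and 748 genes), so the absence of such a gene among 5 is close to the background. The median difference of the 5 genes was 0.15, beside 0.04 for all named genes. All 5 differences were above 0 in the deposited signals, as were 53.2% of all named genes, but that of Casp9 was -0.004 after a loess correction for signal. The split of genes past 2-fold depended on the scaling: 509 were higher and 657 lower when each array was centred on its 75th percentile.

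**Figure D1:**
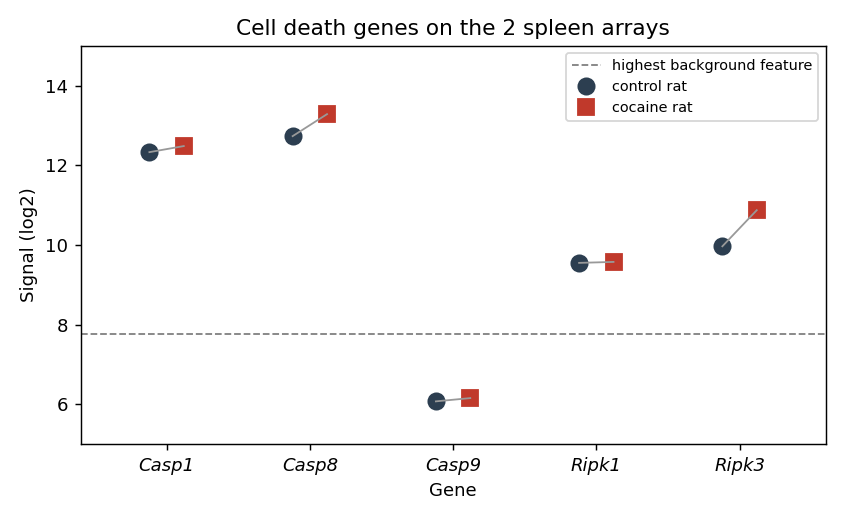
Signals (log2, vertical axis) of the 5 measured cell death genes on the control array (circles) and the cocaine array (squares), 1 rat each, with no error bars because there are no replicates. Ripk3 and Casp8 show the widest gaps (0.91 and 0.55), and Casp9 lies under the highest background feature (dashed line, 7.76) on both arrays.

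Ripk3, the kinase that activates MLKL, had the largest difference of the set. Its signal was 10.88 after cocaine and 9.97 in the control, a difference of 0.91 or 1.87-fold. Both signals were well above the background features. This difference stood at the 96.6 percentile of all named genes. Among 1241 other genes whose mean signal lay within 0.5 of that of Ripk3, 5% to 95% of the differences ran from -1.45 to 0.85, and 12.5% were at least as large in either direction. Ripk3 reached the 2-fold threshold with 75th percentile centring (1.00) and with quantile normalization (1.01), and stayed under it with median centring (0.90) and with the loess correction (0.88).

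Ripk1, the partner kinase that also serves as a scaffold at the TNF receptor, was nearly level between the arrays. Its signal was 9.58 after cocaine and 9.55 in the control, a difference of 0.02. Of 1366 other genes with a like mean signal, 95.9% had a difference at least as large in either direction. The differences of both kinases lay 0.88 apart. No spread between animals is known against which to set this gap.

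Casp8, the initiator caspase of death receptors, had the second largest difference. Its signal was 13.29 after cocaine and 12.74 in the control, which is 0.55 or 1.47-fold. It stood at the 86.9 percentile of all named genes, and 28.7% of 529 genes with a like mean signal differed at least as much. Over the scalings, floors and filters tried, the difference of Casp8 ran from 0.47 to 0.65.

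The other caspases of the set differed less. Casp1, the inflammasome protease, had a signal of 12.49 after cocaine and 12.33 in the control, a difference of 0.15 or 1.11-fold. That difference was near the middle of the differences of all named genes, at the 60.8 percentile. Casp9, the caspase of the apoptosome, had signals of 6.16 and 6.08. Both are under the highest background feature, so the size and sign of its difference (0.08) are not read.

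**Figure D2:**
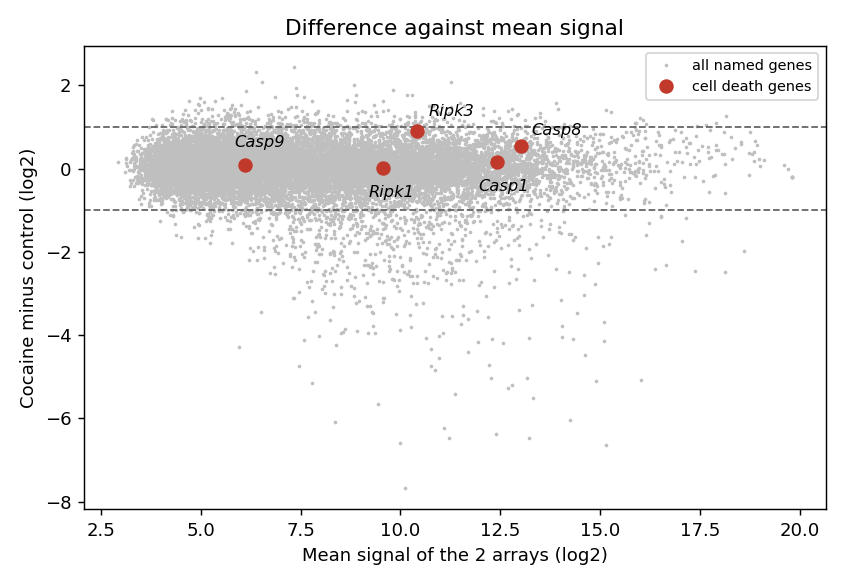
Difference between the arrays (cocaine minus control, log2, vertical axis) against the mean signal of both arrays (log2, horizontal axis) for all 15037 named genes (grey), with the 5 cell death genes in red and 2-fold marked by dashed lines. All 5 lie between the lines, with Ripk3 at 0.91 nearest to the upper one, while the genes with the largest differences lie below the lower one.

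The genes closest to the members in both signals are given as a description over 2 arrays. For Ripk3 these were Wasl, a regulator of actin assembly (distance 0.012), Mterf1, a mitochondrial transcription termination factor (0.014), and Zfp707l1 (0.061). Distance is the straight-line distance between the pairs of log2 signals. For Casp8 they were Pkm, the pyruvate kinase of glycolysis (0.024), Rnpc3 (0.050) and Limd2 (0.056).

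Other genes of these routes were taken from 7 lists of textbook knowledge, which overlap. The Bcl2 family is not among these lists and is given under the other observations. Apart from the members, 94 of the 119 genes of the 7 lists were measured, with a median difference of 0.09. Of these 94 genes, 2 were higher by 2-fold or more and 1 was lower by as much, beside 2.28% and 4.97% of all named genes. The higher count is near its share of all named genes, and the lower count is under its share. Of the 94 genes, 27 were under the highest background feature on both arrays, and 1 of the 2 higher genes, Faim2, is among them. With signals under that feature set to it, the median of the 94 genes was 0.001.

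Apoptosis genes around Casp8 and Casp9 varied in both directions. None of the 18 measured genes of the list of caspases, the apoptosome and related genes was past 2-fold. Their median was -0.03, and 9 were above 0, beside 53.2% of all named genes. Of the 18 genes, 6 were under the highest background feature on both arrays. Of the 11 above it on both, 6 were above 0. Apaf1, which nucleates the apoptosome, was higher by 0.41 (12.73 after cocaine and 12.32 in the control). The effector caspase Casp6 had a difference of -0.43, and Parp1, a nuclear enzyme that effector caspases cleave, had one of -0.54. Among 8 genes listed as caspase inhibitors, 7 were above 0, beside 53.2% of all named genes. Of the 8 genes, 1 was under the highest background feature on both arrays, and 6 of the other 7 were above 0. The exception was Birc5 (survivin), which also serves in cell division, at -1.87 (10.59 against 12.46, 3.65-fold lower). Birc6, a large ubiquitin ligase that binds caspases, had a difference of 0.55. Xiap, which binds effector caspases and caspase 9, had a difference of 0.38. Cflar, the catalytically inactive relative that binds caspase 8 and lies next to Casp8 in the RefSeq gene order, had one of 0.07.

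The list of receptors and adaptors upstream of Casp8 and Ripk1, which also takes in ligands and inhibitors such as Faim2, held 15 measured genes. Of these, 1 was higher by 2-fold or more, beside 2.28% of all named genes. The median of the list was 0.18, but 0.001 with the background floor, where signals under the highest background feature are set to it. Of the 15 genes, 6 were under the highest background feature on both arrays. The gene past 2-fold was Faim2 (1.19), but both of its signals (6.11 and 4.92) were under the highest background feature. Both receptors of tumor necrosis factor had lower signals in the cocaine rat. Tnfrsf1b was at -0.99 (10.34 against 11.33), larger in size than the difference of Ripk3, and Tnfrsf1a at -0.62 (8.52 against 9.14). With the loess correction, 1 gene of the list was lower by 2-fold or more. Fadd, the adaptor that recruits caspase 8, had a difference of 0.44.

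The necroptosis list, with both kinases in it, held 13 measured genes, none past 2-fold in the deposited signals, with a median of -0.05 that was 0.20 with the filter at the median of each array. Ripk3 was its highest gene. Tlr3, a sensor of double-stranded RNA that can engage RIPK3 through an adaptor, had a difference of 0.50, and Cyld, a deubiquitinase of RIPK1, one of 0.41. Ifnar1, a chain of the type I interferon receptor, had the lowest difference (-0.65). The 15 genes of the ubiquitin and kinase checkpoints of RIPK1 had a median of -0.11, and none was past 2-fold. That median was 0.003 with quantile normalization and 0.001 with the background floor. Tbk1, a kinase that restrains RIPK1, had the highest difference (0.51), Mapkapk2, a kinase that phosphorylates RIPK1, had one of -0.40, and Map3k7, which encodes the kinase TAK1, one of -0.35.

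The list of inflammasomes and pyroptosis held 23 measured genes, Casp1 included, none of them past 2-fold. Their median was 0.15, and 17 were above 0, beside 53.2% of all named genes. Of these 23 genes, 8 were under the highest background feature on both arrays, and of the other 15, 11 were above 0. Pycard, the adaptor ASC that joins sensors to caspase 1, had signals of 10.77 after cocaine and 10.25 in the control (0.53). Nlrp3, the sensor, was at -0.26. The caspases next to Casp1 in the RefSeq gene order went different ways, Casp4 by -0.20 and Casp12 by 0.58. Ninj1, which ruptures the membrane after pore formation, had a difference of 0.38. The median of the list was 0.001 with the background floor.

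Cytokines of the IL-1 family, with their receptors and inhibitors, were represented by 10 genes. Of these, 9 were above 0, beside 53.2% of all named genes, and 1 was higher by 2-fold or more, beside 2.28%. The median of the list was 0.25, but 0.07 with the background floor and 0.38 with a filter at the median of each array. Il1a, Il1r2 and Il36g were under the highest background feature on both arrays. Of the 6 genes above that feature on both arrays, 5 were above 0. The gene past 2-fold was Il1rap, the accessory chain of the IL-1 receptor (8.93 against 7.90, 1.04 or 2.05-fold). Of the cytokines that caspase 1 matures, Il1b had a difference of 0.80 (10.31 against 9.51) and Il18 one of 0.09. The receptor antagonist Il1rn had a difference of -0.33. Gpx4, the lipid peroxide reductase that the study blotted for ferroptosis, had signals of 12.92 after cocaine and 12.91 in the control (0.01).

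**Figure D3:**
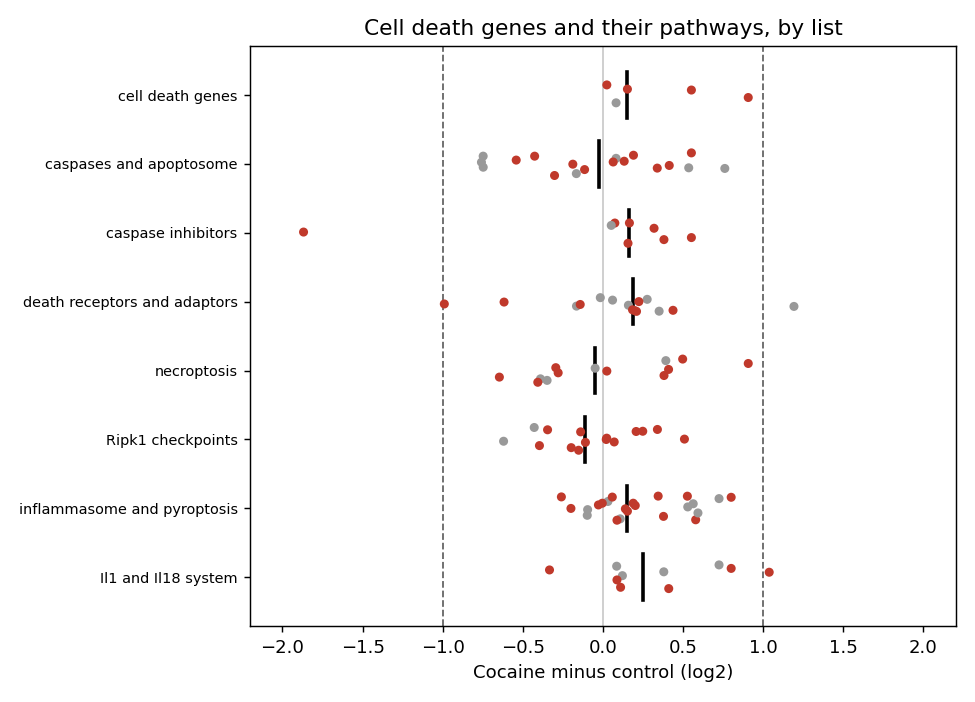
Differences (cocaine minus control, log2, horizontal axis) of every measured gene of the cell death set and of 7 pathway lists, 1 point per gene. Red points had both signals above the highest background feature and grey points did not, black bars are medians and dashed lines mark 2-fold. Most points lie between the lines, with Birc5 (-1.87) the farthest to the left.

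Marker genes of several cell types differed between the arrays, and in whole tissue fewer cells of a type and less RNA per cell cannot be told apart. Among all named genes, 4.97% were lower by 2-fold or more and 53.2% were above 0. All 11 measured erythroid markers were lower after cocaine by more than 2-fold, and the log2 of their summed signal was 14.82 against 20.22. Of 9 neutrophil markers, 4 were lower by 2-fold or more, and the log2 sum was 12.71 against 14.00. Elane, Camp, Ltf, Csf3r and Cxcr2 of the neutrophil list were under the highest background feature on both arrays, and Camp is among those 4. Of the 11 macrophage and red pulp markers, 9 were below 0, with a log2 sum of 16.92 against 17.17. The summed signals of lymphoid markers, in which the brightest genes weigh most, were higher. The B cell list summed to 17.21 against 16.53 (3 of 5 genes above 0). The T cell list summed to 13.73 against 13.68 (6 of 9) and the NK list to 13.70 against 13.54 (6 of 8). Among the markers below 0 were Fcer2 (-0.93) and Pax5 (-0.09) of B cells and Cd4 (-0.69), Cd5 (-0.27) and Trat1 (-0.23) of T cells. Gzmb, Klrb1 and Ncr1 of the NK list were under the highest background feature on both arrays. The median over all 22 lymphoid markers was 0.38, below the differences of Ripk3 and Casp8 and above those of Casp1 and Ripk1. The part of these shifts in the differences of the cell death genes was not tested.

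**Figure D4:**
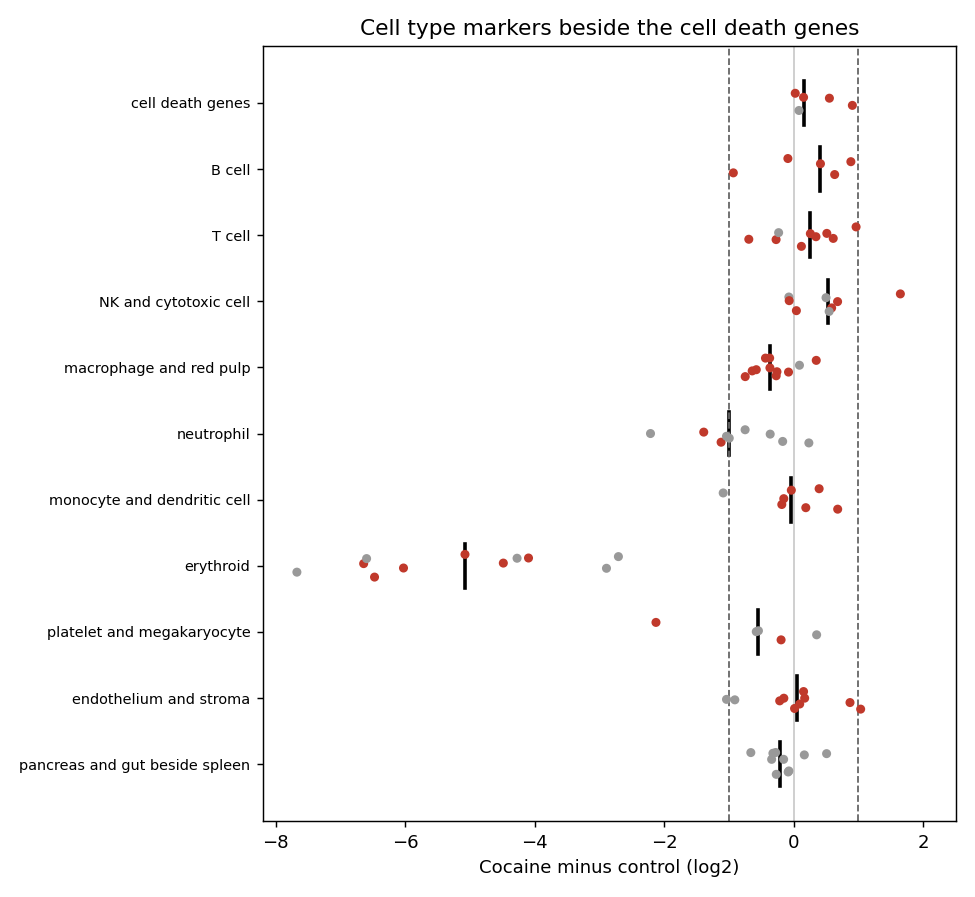
Differences (cocaine minus control, log2, horizontal axis) of the 5 cell death genes and of marker genes of 10 kinds of cells and tissues, 1 point per gene. Red points had both signals above the highest background feature and grey points did not, black bars are medians and dashed lines mark 2-fold. The erythroid markers, with a median of -5.08, stand apart from the cell death genes, whose median is 0.15.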

How the data were processed

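The authors hybridized total RNA, isolated with TRIzol and RNeasy columns and treated with DNase I, to Clariom S rat arrays. The deposited table holds log2 signals of 24834 features on 2 arrays, which the authors had summarised. The sources used here do not state the background correction, the normalization or the genome build. No value column was set aside, and 1646 control features were dropped. Genes were clusters that carry a single symbol (15049 clusters, 15037 genes), and where a symbol had several clusters (10 symbols) the brightest on average was kept.

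Differences were cocaine minus control, with no further normalization and no test. Genes were counted at 2-fold. The alternatives were median and 75th percentile centring, quantile normalization, loess with a span of 0.3, floors at the 25th percentile and at the highest background feature, a filter at the median of each array, thresholds of 1.5-fold and 4-fold, and means over clusters. The members and lists were chosen with earlier results of these data known. Named were all members, genes past 2-fold in the pathway lists, genes from among up to 4 others per list with the largest differences above background, Gpx4, and the 3 nearest genes of a member. Casp1 and Casp8 neighbours, Nlrp3, Il18 and Mcl1 were picked once values were known. The counting was tested on simulated data. Python 3.11.15, numpy 2.4.6, pandas 2.3.3, statsmodels 0.14.6 and matplotlib 3.10.9 were used.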

Additional observations from a re-analysis of the deposited data

How the results depend on the processing

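With 1 array per group, leaving out replicates and pairing were not possible. A median or difference was taken as moved when it changed by 0.1 or more, and a count when it changed by over 1.5 times. The median of the 5 cell death genes (0.15) ran from 0.09 to 0.25 over the scalings, and was 0.352 with the filter at the array median, which leaves out Casp9. The count of these genes at least 2-fold higher, 0 in the deposited signals, was 1 (Ripk3) with 75th percentile centring, with quantile normalization and at the 1.5-fold threshold, and the count lower was 0 under all 10 alternatives. Among the 94 other pathway genes, the 2 higher genes became 1 with either floor and with the filter, 6 at 1.5-fold and 0 at 4-fold, and the 1 lower gene became 2 with loess, 8 at 1.5-fold and 0 at 4-fold. Over all named genes, the 343 higher genes became 147 with the background floor, 222 with the filter, 1748 at 1.5-fold and 5 at 4-fold, and the 748 lower genes became 1765 and 246 at those thresholds. The cause of the changes with scaling was not tested. Of 739 values recomputed, 657 kept within these limits and 82 moved. Many of the 657 were fixed in advance. A threshold cannot change a median or a difference, and means over clusters change only the 10 symbols with several clusters. A change of sign was looked for only in medians and differences past 2-fold. Only the erythroid median (-5.08) was past it, and it kept its sign. Signals under the background features limit Casp9.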

Other observations

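Some genes of ferroptosis, of the Bcl2 family and of lysosomal death held larger differences than the 5 members. Of 20 genes of ferroptosis, 4 were lower after cocaine by 2-fold or more and none was higher by as much, beside 4.97% and 2.28% of all named genes. Their median was -0.35, but -0.21 with the floor at the 25th percentile, -0.15 with the background floor and -0.49 with loess. Alox15, a lipoxygenase that oxidizes membrane lipids, had signals of 10.67 after cocaine and 15.69 in the control (-5.02). Gch1, the first enzyme of tetrahydrobiopterin synthesis, was at -3.20, and Ncoa4, the receptor that takes ferritin to lysosomes, at -2.77. Alox12 was at -1.55, with its signal in the cocaine rat (6.45) under the highest background feature. Lpcat3, which places polyunsaturated fatty acids in membrane lipids, was at -0.99. In the Bcl2 family, 2 of 20 genes were at least 2-fold lower, beside the same 4.97% of all named genes, namely Bcl2l1, which encodes the survival protein BCL-XL (11.11 against 13.57, -2.46), and Bnip3l, a receptor for the removal of mitochondria (15.17 against 17.57, -2.40). The median of the Bcl2 family was -0.003, and 10 of its 20 genes were under the highest background feature on both arrays. The survival gene Mcl1 was level (15.90 against 15.97). Beside these values, all 11 erythroid markers were lower, with a median of -5.08, and their part was not tested. Of 17 genes of lysosomal death and parthanatos, 2 were at least 2-fold lower, beside 4.97% of all named genes, and 0 were higher by as much. The 2 lower genes were the cathepsins Ctsb (14.33 against 16.12, 3.48-fold) and Ctsd (10.82 against 12.42, 3.02-fold). The median of this list was -0.27, but -0.17 with quantile normalization. Of the 17 genes, 8 were above 0, Ctss (0.60) and Cst3 (0.60) among them.

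The surroundings of Casp8 in the RefSeq gene order were uneven. Trak2 and Stradb, at 2 and 3 places after Casp8, had differences of -4.40 (9.50 against 13.90) and -3.57 (10.41 against 13.97), while Casp8 was at 0.55 and Hycc2, at 3 places before it, at 0.73. These neighbours were chosen after their values were seen.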
